A study of Rangifer tarandus with 4 samples.

Results

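Protein-coding genes without an intron were described from the gene annotation that accompanied single-cell RNA libraries of reindeer (Rangifer tarandus) blood cells. A gene was a member if it was annotated as protein-coding, did not lie on the mitochondrial sequence, and carried exactly 1 exon line in each of its transcripts. There were 2725 such genes among 21848 protein-coding genes outside the mitochondrial sequence (12.5%). The other 19123 genes, called multi-exon below, had at least 1 transcript with more than 1 exon, and none of them mixed single-exon and multi-exon transcripts. Nearest outside the rule were 2091 genes with 2 exons at most; 190 genes had an intron under 30 bases, but joining such exons made none of them single-exon. Of the 2725 single-exon genes, 724 carried a gene symbol and are called named, and 2001 carried only an identifier and are called unnamed.

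The libraries were made from peripheral blood mononuclear cells on day 3 after a wound, 2 from the venous blood of the distal antler velvet (antler) and 2 from the saphenous vein (back). About 12000 cells were loaded for each, and the chemistry reads the 3′ end of polyadenylated RNA. The labels give no genotype, sex, age or agent, and do not say how many animals gave the blood. Counts per cell were not analysed here, and levels, depth and the antler to back difference are therefore not given. The gene models come from the cattle (Bos taurus) genome. All positions below refer to its build ARS-UCD1.2 and count from 1, and reindeer positions were not used here. The annotation is a complete list of models and not a sample. Its counts and shares therefore carry no sampling error, and no p-values are given. Genes of a family share their origin and are not independent observations.

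Most mammalian coding genes are interrupted by introns that are spliced out of the transcript. Intronless coding genes are known to arise in several ways. Some belong to families in which most genes lack introns, such as the core histones, which are made in bulk when DNA is copied, and the mammalian type I interferons, which are released during viral infection. Others are receptors whose whole membrane-spanning protein is encoded in a single exon, as in olfactory and taste receptors. Still others are copies of spliced messenger RNA that were written back into the genome (retrocopies). A gene model that ends at its stop codon holds no 3′ untranslated region (UTR), the stretch where reads of a 3′ library usually fall.

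Most single-exon genes had no symbol. A symbol was carried by 26.6% of single-exon genes (724 of 2725) and by 84.0% of multi-exon genes (16071 of 19123), against 76.9% over all protein-coding genes. Read the other way, single-exon genes made up 4.31% of all 16795 named genes and 39.6% of all 5053 unnamed genes. Each single-exon gene had exactly 1 transcript, whereas multi-exon genes had 1.82 transcripts on average and a single transcript in 56.9% of cases. All 2725 coding lengths were multiples of 3. A start codon was annotated in 93.2% of single-exon and 95.5% of multi-exon genes (95.2% over all), and a stop codon in 97.1% of single-exon and 99.3% of multi-exon genes (99.0% over all).

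Single-exon genes lay on each of the 30 assembled chromosomes and on 36 unplaced scaffolds, but they were spread unevenly. Chromosome 15 held 335 of them, which was 34.0% of its 986 protein-coding genes. Chromosome 7 came next with 214 of 1259 genes (17.0%), followed by chromosome 5 with 159, chromosome 10 with 141 and chromosome 3 with 128. Together these 5 chromosomes carried 977 single-exon genes, or 35.9% of the members against 25.7% of all protein-coding genes. They were taken for holding the most members, which favours a high share. Chromosome 15 alone held 12.3% of members and 4.51% of protein-coding genes, whereas chromosome 3 held 4.70% and 5.62%. The share of a chromosome's genes that had a single exon ranged between 6.63% on chromosome 25 and 34.0% on chromosome 15, with a median of 10.3%. Unplaced scaffolds held 2.02% of single-exon genes (55 genes) and 0.852% of multi-exon genes (163 genes).

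**Figure D1:**
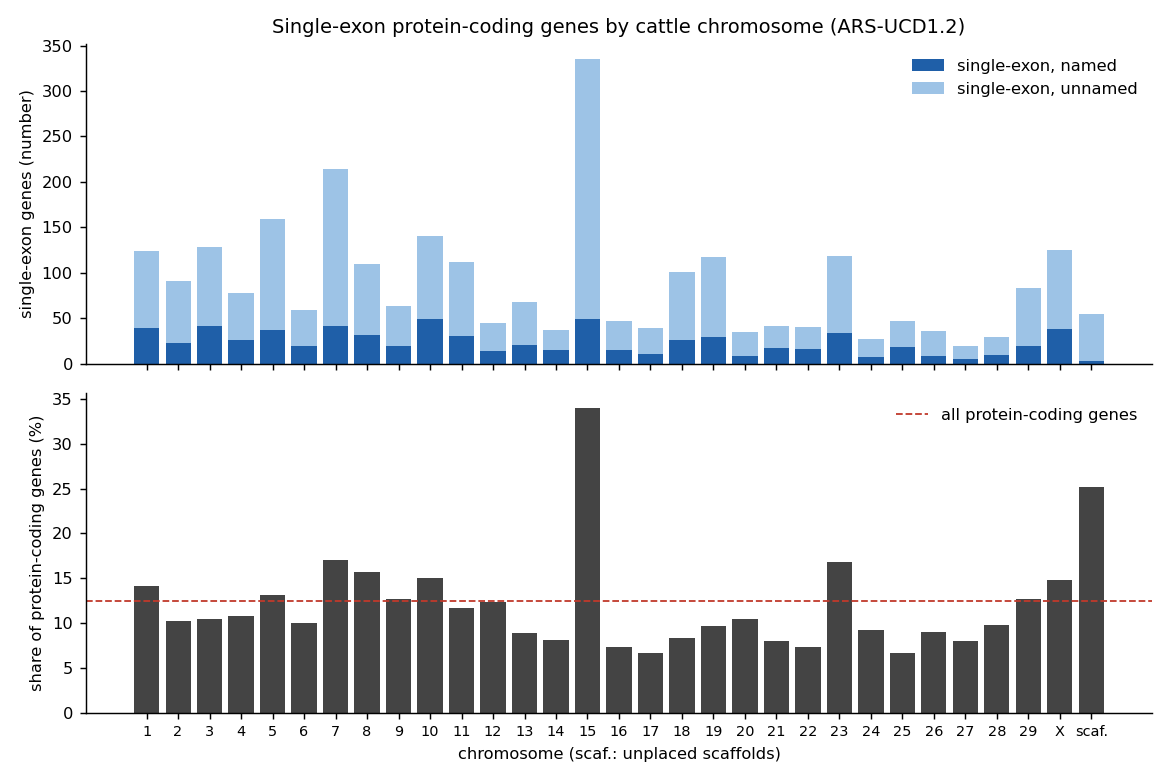
Upper panel: number of single-exon protein-coding genes on each cattle chromosome, with named genes in dark blue and unnamed genes in light blue. Lower panel: their share of the chromosome's protein-coding genes in percent, with the share over all genes as a dashed line; chromosome 15 stands highest with 335 genes and 34.0%.

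The excess on chromosome 15 consisted of large clusters. A cluster was a run of single-exon genes on any strand with gaps under 100 kb, and 259 of the 335 members on chromosome 15 sat in clusters of 10 or more. Chromosome 15 had 48 isolated members, 4.87% of all its 986 protein-coding genes, and the median over chromosomes was 6.22%. Clustered genes stay in the denominator of these shares, which lowers them most where clusters are large. Isolated members ranged between 2.38% of all protein-coding genes on chromosome 18 and 11.4% on chromosome X. The X chromosome held 125 members, of which 96 were isolated and none lay in a cluster of 10 or more.

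Over the whole genome, 1403 single-exon genes (51.5%) had another single-exon gene within 100 kb. Some protein-coding gene of either structure lay within 100 kb for 90.2% of single-exon and 94.5% of multi-exon genes (94.0% over all), so a close neighbour as such was common. The nearest gene was itself single-exon for 930 of the 2703 members that shared their sequence with another gene (34.4%), against the 12.5% of all genes that are members. The 1403 genes formed 266 clusters. Pairs were the commonest form, with 158 clusters, and 31 clusters of 10 or more genes held 742 members, or 27.2%.

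Of these 31 large clusters, 22 contained at least 1 gene with an olfactory receptor symbol. Olfactory receptors are the odour sensors of the nasal epithelium and belong to the largest gene families of mammals. The 22 clusters held 608 members, of which 85 were named and 523 were unnamed. A coding length of 900 to under 1000 bases, the range that also holds most of the named olfactory receptors, was found in 552 of the 608 (90.8%), and 474 of these 552 were unnamed. The unnamed genes are given no family here, since the annotation assigns them none. Only 6 of the 608 had a 3′ UTR.

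The largest cluster lay at chr15:48424173-50965884 and held 80 single-exon genes, 6 of them named, with OR51A7 the first and OR52M1 the last named gene. The next, at chr10:26779223-28258370, held 57 genes and ran between RPS29, a ribosomal protein symbol, and OR4F15. A cluster of 46 at chr23:29088449-29931333 ran between OR2H1 and OR5V1. Symbols were carried by 6, 13 and 5 genes of these 3 clusters in that order, so most of their content was unnamed. The remaining 2 of the 5 largest were a cluster of 44 at chr15:77899334-78731102, with OR4X1 and OR10AG1 as its named ends, and a cluster of 40 at chr11:93285747-93973503, with OR1J2 and OR1K1.

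Within the 31 large clusters, 491 of 711 adjacent pairs of members were on the same strand (69.1%), and 163 multi-exon genes were interspersed between members. In 2 of the clusters no multi-exon gene intervened.

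Large clusters of other families were fewer. At chr19:41190862-41483373, 31 genes included KRTAP3-3 and KRTAP9-1 at the named ends; keratin-associated proteins cross-link the keratin of hair and wool. A block of 20 at chr23:31713797-31927357 held 11 genes with histone symbols. A block of 13 at chr8:23125610-23346296 held 6 genes with the symbol IFNB3, an interferon beta, and 7 unnamed genes. Trace amine receptors, which respond to amines, made up 5 of 11 genes at chr9:70475309-70807950, running between TAAR9 and TAAR1. Keratin-associated proteins and the tight-junction proteins CLDN8 and CLDN17 shared a block of 10 at chr1:5389438-5830797.

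Coding length and UTRs differed between cluster sizes. A coding length of 900 to under 1000 bases was found in 7.34% of isolated members, 13.9% of members in pairs, 40.7% in clusters of 3 to 4, 64.7% in clusters of 5 to 9, 68.5% in clusters of 10 to 19 and 82.0% in clusters of 20 or more. Over the same order of sizes, the share with a 3′ UTR was 21.9%, 16.8%, 11.05%, 1.73%, 2.49% and 2.99%. Isolated genes thus had a 3′ UTR most often and members of clusters of 5 or more seldom. Symbols were carried by 30.4%, 34.8%, 29.7%, 23.7%, 17.8% and 15.4% of members over the same sizes, most often in pairs.

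**Figure D2:**
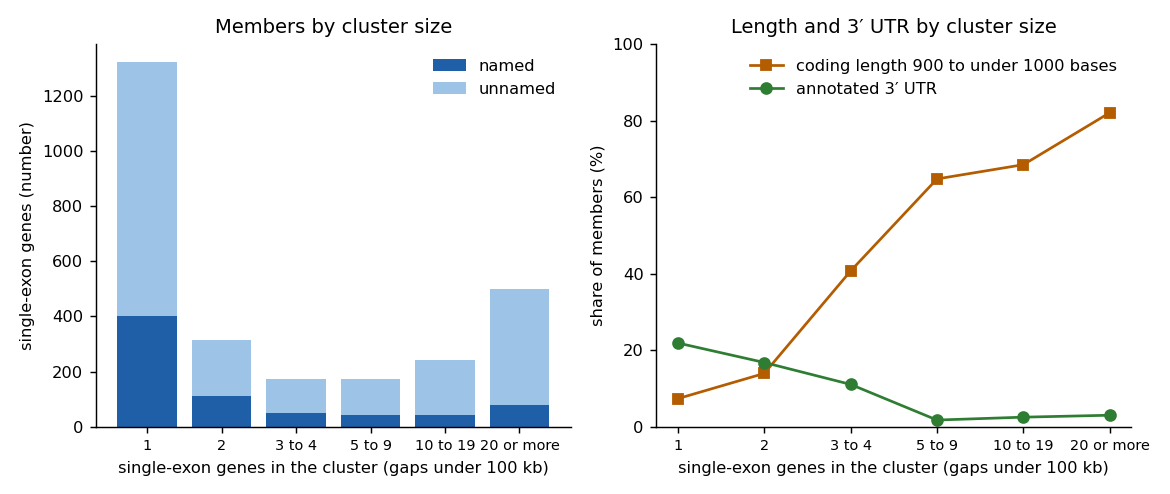
Left: number of single-exon genes by the size of the cluster they lie in (1 marks a gene with no other single-exon gene within 100 kb), named in dark blue and unnamed in light blue. Right: percent of these genes with a coding length of 900 to under 1000 bases (orange squares) and percent with an annotated 3′ UTR (green circles); in clusters of 20 or more the first is 82.0% and the 3′ UTR share 2.99%.

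Single-exon genes had a median coding length of 936 bases (quartiles 552 and 1050, stop codon not counted), against 1245 bases in multi-exon genes (quartiles 744 and 2010). Named single-exon genes had a median of 954 bases and named multi-exon genes 1368. Unnamed genes went the other way, with 936 bases in single-exon and 663 in multi-exon genes. The coding length is the longest over a gene's transcripts, and each member has only 1. Multi-exon genes with a single transcript had a median of 1005 bases, 1146 if named and 591 if unnamed, so the difference from members was smaller there. The distribution was dominated by a narrow peak: 33.0% of members had 900 to under 1000 coding bases, against 5.81% of multi-exon genes and 9.20% of all genes. The 3 commonest lengths were 936 bases with 90 genes, 942 with 85 and 939 with 77. Further common lengths stood apart from that peak: 33 genes had 378 bases, the length of 5 of the 6 genes with the symbol H2B, and 22 had 309 bases, the length of all 5 genes with the symbol H4.

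**Figure D3:**
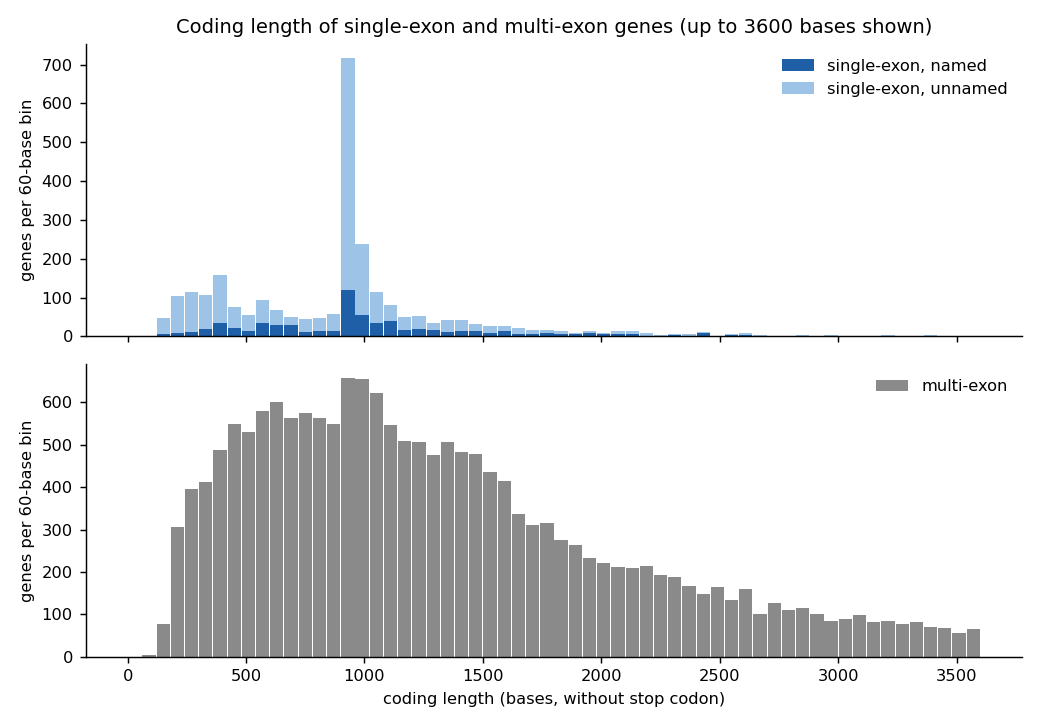
Coding length in bases (horizontal) against the number of genes per 60-base bin (vertical) for single-exon genes (upper panel, named dark blue, unnamed light blue) and multi-exon genes (lower panel, grey). The single-exon panel has a narrow peak at 900 to under 1000 bases, which holds 33.0% of the genes, and the multi-exon panel a broad distribution with a median of 1245 bases.

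Short coding sequences under 300 bases were found in 267 single-exon genes (9.80%) and 782 multi-exon genes (4.09%), against 4.80% over all genes. Among unnamed genes they were less common in single-exon models, 12.04% against 15.9% in multi-exon models. The shortest named member was TMSB4, a thymosin beta symbol whose protein binds actin monomers, at chr1:96158154-96158791 with 132 bases (44 residues). IGIP on chromosome 7 had 141 bases, ZC3H11A on chromosome 16 had 153, RPS29 on chromosome 10 had 168 and ORF1 on chromosome 3 had 171. The longest named member was ARMCX4, an armadillo-repeat gene at chrX:50714729-50721682, with 6951 bases (2317 residues) in its exon. RP1L1, known from photoreceptors, had 6138 bases, C6H4orf54 had 5373, the zinc finger gene ZNF518A had 4446 and C28H10orf71 had 4302. None of these 5 longest named genes had an annotated UTR at either end. The longest unnamed member had 6813 bases, and of the 24 unnamed members with 3000 bases or more 9 had a 3′ UTR and 11 a 5′ UTR.

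UTRs were scarce. A 3′ UTR of at least 1 base was annotated for 385 single-exon genes (14.1%) and 13934 multi-exon genes (72.9%), against 65.5% over all genes. A 5′ UTR was annotated for 408 single-exon genes (15.0%) and 14113 multi-exon genes (73.8%), against 66.5% over all. The ends went together: 375 single-exon genes (13.8%) had both, 10 had a 3′ UTR alone and 33 a 5′ UTR alone. No UTR at all was present in 2307 single-exon genes (84.7%) and 19.8% of multi-exon genes, with 59.9% of all genes holding both UTRs and 27.9% neither.

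The difference was present in named and in unnamed genes. Among named genes a 3′ UTR was present in 29.3% of single-exon and 82.1% of multi-exon models (79.8% over all named genes). Among unnamed genes it was present in 8.65% of single-exon and 24.1% of multi-exon models. Multi-exon genes that had a single transcript, as all members do, had a 3′ UTR in 65.8% of cases, 79.9% if named and 20.2% if unnamed. In named genes with 2 exons the share was 73.7%, with 3 exons 81.3%, with 4 to 5 exons 84.2%, with 6 to 10 exons 85.4% and with 11 or more 80.3%. The step between 1 and 2 exons was thus the largest in this series of named genes, 29.3% against 73.7%.

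**Figure D4:**
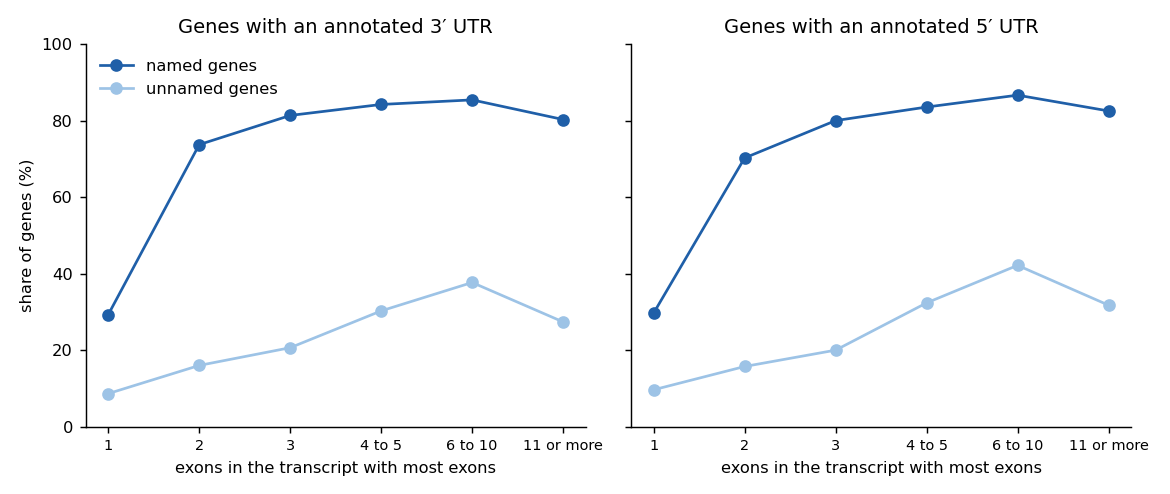
Percent of genes with an annotated 3′ UTR (left) and 5′ UTR (right) by the number of exons in the gene's transcript with most exons, for named genes (dark blue) and unnamed genes (light blue). Named single-exon genes stand at 29.3% for the 3′ UTR and named genes with 2 exons at 73.7%.

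Where a 3′ UTR was annotated it was also short, with a median of 212 bases in single-exon genes against 642 in multi-exon genes. The medians were 436 and 654 bases for named, and 95 and 433 for unnamed, single-exon and multi-exon genes in that order. The 5′ UTR had a median of 102.5 bases in single-exon and 212 in multi-exon genes. UTR lengths are the longest over a gene's transcripts. In multi-exon genes with a single transcript the medians were lower, 553 bases for the 3′ UTR and 151 for the 5′ UTR. Only 42 members, 39 of them named, had a 3′ UTR of 1000 bases or more. The longest belonged to APOLD1, an endothelial early response gene, at chr5:97047947-97051826 with 3086 bases. ATXN7L3B on chromosome 5 had 3047 bases, the small GTPase gene RAP2B on chromosome 1 had 2933, TSPYL4 on chromosome 9 had 2813 and FIBIN on chromosome 15 had 2678. In each of these genes the 3′ UTR was longer than the coding sequence.

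Over named and unnamed genes pooled, the single-exon share with a 3′ UTR was below the multi-exon share in each class of coding length. It was 7.12% against 43.4% under 300 bases, 34.2% against 77.4% at 600 to under 900 bases and 7.90% against 73.8% at 900 to under 1200 bases. Among unnamed genes alone it was close at 600 to under 900 bases, 30.9% in single-exon and 31.6% in multi-exon genes. In long unnamed genes it was higher in single-exon models, with 28.6% against 26.5% at 1800 to under 3000 bases and 37.5% (9 of 24) against 28.9% at 3000 bases or more. The class of 900 to under 1200 bases held 1202 members (44.1%), 615 of them in clusters of 10 or more.

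Single-exon genes seldom overlapped other genes on their own strand. Not 1 of them had an exon base in common with a same-strand neighbour, against 378 multi-exon genes (1.98%, with 1.73% over all genes). On the opposite strand 62 single-exon genes (2.28%) and 1345 multi-exon genes (7.03%) shared exon bases, with 6.44% over all. The next gene on the same strand began under 2 kb past the 3′ end for 48 single-exon genes (1.76%) and 1289 multi-exon genes (6.74%), with 6.12% over all.

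The reverse was found for introns. Of the single-exon genes, 370 (13.6%) lay wholly inside an intron of another protein-coding gene, against 517 multi-exon genes (2.70%) and 4.06% over all. Unnamed genes were nested more often in both structures. The share was 16.5% of single-exon and 10.4% of multi-exon models among unnamed genes (12.8% over all unnamed). Among named genes it was 5.52% and 1.25% (1.43% over all named). All 370 stood on the strand opposite to the host gene and none on the host's strand, whereas multi-exon genes lay in same-strand introns in 214 cases and in opposite-strand introns in 319. Of the nested members 40 were named and 330 unnamed, spread over 349 host genes. The host introns had a median length of 14091.5 bases. A 3′ UTR was annotated for 14.6% of nested and 14.1% of the other single-exon genes. These pooled shares mix named and unnamed genes, and most nested members were unnamed. Of the 40 named nested members 20 had a 3′ UTR, against 29.3% of all named single-exon genes.

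The longest host intron around a named member, 571.402 kb, belonged to IMMP2L, a mitochondrial inner membrane peptidase subunit, and enclosed LRRN3, a leucine-rich repeat neuronal protein. CSTF2T, a testis form of an RNA cleavage factor, lay in a 383.357 kb intron of PRKG1, the cGMP-dependent kinase. DDI1 lay in a 180.007 kb intron of PDGFD, a platelet-derived growth factor ligand. SLC25A2, a mitochondrial ornithine carrier, and TMSB4 lay in introns of 176.585 kb and 146.151 kb of unnamed genes. Members with receptor or blood cell roles were also nested: LPAR6, a lysophosphatidic acid receptor, in the retinoblastoma gene RB1 and the orphan receptors GPR34 and GPR82 in the same intron of CASK.

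Of the 724 named members, 342 (47.2%) fell into 1 of 28 families recognised by symbol, and 26 families had at least 1 single-exon gene. The share of a family that had a single exon varied widely. It exceeded 50% in 6 families, namely olfactory receptors, histones, keratin-associated proteins, bitter taste receptors, type I interferons and trace amine receptors. Single-exon genes made up 4.31% of all named genes.

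Olfactory receptors were the largest family, with 114 single-exon genes of 135 with such a symbol (84.4%). They lay on 14 chromosomes, 29 of them on chromosome 15, and 110 of the 114 were within 100 kb of another single-exon gene. Their coding lengths ran between 819 bases in OR10S1 and 1053 in OR1G1, with a median of 942, and the first by position was OR10J5 at chr3:10177684-10178613. None of the 114 had a UTR at either end, and of the 21 multi-exon members 1 had a 3′ UTR. Bitter taste receptors behaved alike, with 12 of 16 single-exon, a median of 921 bases and no UTR; they ran between T2R65A with 885 bases and TAS2R38 with 1005. All 5 trace amine receptors were single-exon, lay in 1 cluster on chromosome 9 and had no UTR.

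Histones had 25 single-exon genes of 42 (59.5%), with a median coding length of 378 bases, and 16 of them lay on chromosome 23. Core histones form the spool on which DNA is wound, and H1 histones bind the linker between spools. The first by position was an H4 gene at chr1:8918075-8918386. The shortest was an H2B gene of 201 bases and the longest an HIST1H1E gene of 657. A 3′ UTR was annotated for 6 of the 25, the longest being 1066 bases in HIST3H2A. Of the 17 multi-exon histone genes, which include other symbols such as H2AFZ and H3F3A, 12 had one. Among genes with a HIST symbol the contrast was smaller, 3 of 12 single-exon and 4 of 8 multi-exon genes. Histone messages made during DNA copying are known to end in a stem-loop without a poly(A) tail.

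Type I interferons had 10 single-exon genes of 12, with coding lengths between 558 and 585 bases, and 9 of them lay on chromosome 8. IFNE, an epithelial interferon, was the first, at chr8:22530903-22531484. The ruminant trophoblast interferons IFNT and IFNT2 were the 2 with a 3′ UTR, of 548 and 432 bases. The other 8 ended at the stop codon.

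Keratin-associated proteins had the highest share after the trace amine receptors, 13 of 14, and were clustered without exception. They differed from the receptor families in their UTRs, which 9 of the 13 had at both ends. Coding lengths ran between 261 bases in KRTAP7-1 and 888 in KRTAP9-1, and KRTAP9-1 also had the longest 3′ UTR, 464 bases.

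Receptors for amines, peptides, purines and chemokines were mixed in structure and mostly isolated. Of aminergic receptors, 15 of 38 had a single exon and none of the 15 lay in a cluster. They included HTR1F, a serotonin receptor at chr1:36006380-36007572, and the acetylcholine receptors CHRM5 with 1596 coding bases and CHRM4 with 813 coding bases and a 3′ UTR of 1258. Orphan receptors with a GPR symbol were single-exon in 22 of 72 cases, between 909 bases in GPR141 and 1509 in GPR101, and 2 of the 22 had a 3′ UTR. Peptide receptors were single-exon in 10 of 29 cases, and MC4R, the melanocortin receptor of appetite control, had a 3′ UTR of 582 bases. For the symbol pattern of chemoattractant, purine and lipid receptors, which also took in CNRIP1, the count was 12 of 63. OXER1 was the longest of the 12 at 1134 bases and FFAR1, a fatty acid receptor, the shortest at 900. ACKR4, a chemokine scavenger, had a 3′ UTR of 486 bases.

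Transcription factors formed a further group. Forkhead factors were single-exon in 13 of 41 cases, between 945 bases in FOXE3, which also had the longest 3′ UTR of the 13 at 770, and 1506 in FOXC2. SOX factors were single-exon in 6 of 17 cases, between SOX14 with 720 bases and SOX4 with 1443, and SOX4 was the only 1 of the 6 with a 3′ UTR. POU factors were single-exon in 4 of 14 cases, all of the POU3F class, which acts in neural development. Zinc finger proteins contributed 26 genes but are a large family of 348, so their single-exon share was 7.47%; ZNF580 was the shortest with 516 bases, and ZNF22 had the longest 3′ UTR with 1219.

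Other families were channels, junction proteins, chaperones and enzymes. Claudins, the strands of tight junctions, were single-exon in 9 of 22 cases, and CLDN8 had a 3′ UTR of 1229 bases. Potassium channels were single-exon in 10 of 93 cases, between KCNE3 with 297 bases and KCNA5 with 1794. Genes matched by the heat shock symbol pattern, which also took in DNAJ genes, HSPBP1, HSPBAP1 and HSPG2, were single-exon in 9 of 75 cases. Glycosyl- and sulfotransferases were single-exon in 8 of 61, with CHST2, which sulfates ligands that guide lymphocytes, carrying a 3′ UTR of 2158 bases. Ribosomal proteins were the least often single-exon of the families with 3 or more members, at 3 of 80. Defensins had none of 19, and no gene carried a vomeronasal receptor symbol.

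**Figure D5:**
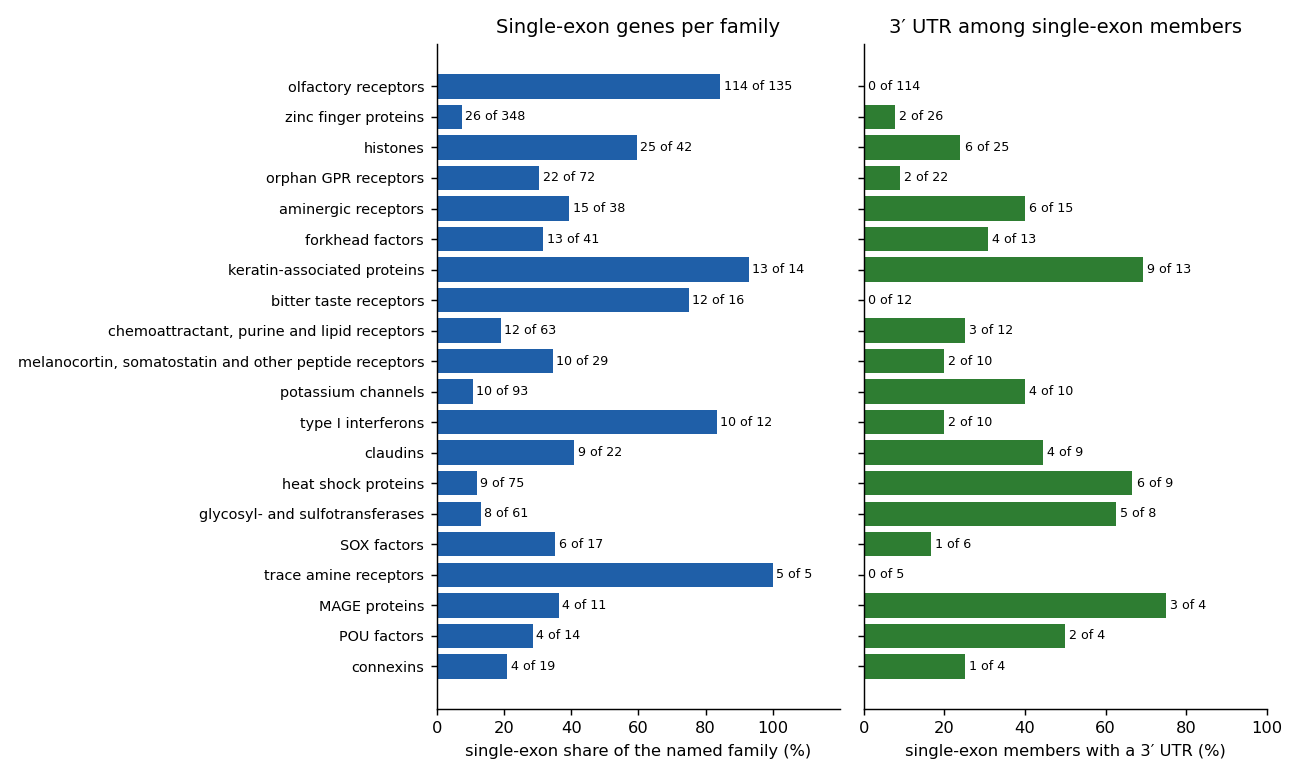
Named families with at least 4 single-exon genes. Left: percent of the family's genes that have a single exon, with counts. Right: percent of those single-exon genes with an annotated 3′ UTR, with counts; olfactory, bitter taste and trace amine receptors are at 0, and 9 of 13 keratin-associated protein genes have one.

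Genes with roles in blood cells were looked up in 7 lists of 113 symbols drawn up for intronless and near-intronless genes. Of these symbols 102 were matched, 30 of them to a single-exon gene and 72 to multi-exon genes, 46 of which had 2 exons. A 3′ UTR was annotated for 14 of the 30 single-exon genes and 62 of the 72 multi-exon genes, against 65.5% over all genes. Listed genes are all named, and over named genes the share was 29.3% in single-exon and 82.1% in multi-exon genes. The lists were chosen for their structure, so the count of single-exon genes is no result.

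Early response and leucine-zipper factors, which switch on within minutes of a stimulus, were single-exon in 10 of 15 matched cases, and 7 of the 10 had a 3′ UTR. JUNB, an AP-1 subunit at chr7:12736091-12737893, had 1041 coding bases, a 5′ UTR of 281 and a 3′ UTR of 478. JUND on the same chromosome had the same coding length with a 3′ UTR of 681 bases. IER2 had a 3′ UTR of 972 bases, CEBPD of 797, CITED4 of 544, IER5L of 155 and SOX4 of 71. CEBPB, a driver of myeloid genes at chr13:78205757-78206803, and MAFA had no UTR. The paralogs CEBPB and CEBPD thus differed, CEBPB ending at the stop codon and CEBPD running on past it. JUN, IER3, CEBPE, KLF16 and CITED2 had 2 exons each, and IER5 and CEBPA were not matched by symbol.

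The single-exon genes of the list of cytokine signal inhibitors and small GTPases had no 3′ UTR. SOCS1, which dampens cytokine receptor signals, at chr25:9913007-9913678, had 669 coding bases and no UTR. SOCS3, at chr19:53840159-53840858, had 687 coding bases, a 5′ UTR of 10 and no 3′ UTR. ARF6, a small GTPase of membrane traffic, had 525 coding bases and no UTR. The other 8 matched genes of that list were multi-exon, and 7 of these had a 3′ UTR.

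Leukocyte receptors for chemokines and lipids were single-exon in 4 of 30 matched cases. CCR3, the eotaxin receptor of eosinophils, CCR8, found on regulatory T cells, and XCR1, found on cross-presenting dendritic cells, all lay on chromosome 22 and had no UTR. LPAR6 on chromosome 12 had UTRs of 529 (5′) and 295 (3′) bases. Purine and orphan receptors were single-exon in 7 of 19 cases. Of these GPR4, a proton sensor, had a 3′ UTR of 126 bases, and P2RY1, the platelet ADP receptor, a 3′ UTR of 158 bases. P2RY8, GPR34, GPR82 and GPR174 had no UTR, whereas all 12 multi-exon genes of that list had a 3′ UTR.

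TLR5, the flagellin receptor at chr16:26601165-26603780, was the single member among 8 matched Toll-like receptors, with 2613 coding bases and no UTR, and 6 of the other 7 had a 3′ UTR. The platelet glycoproteins GP5, with 1617 coding bases, and GP9, with 540, had no UTR. CLEC14A, an endothelial lectin, had a 3′ UTR of 414 bases. The inducible chaperone gene HSPA1A, at chr23:27520317-27522790, had 1923 coding bases and a 3′ UTR of 337, and HSPA2 had 1908 coding bases and a 3′ UTR of 480.

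Developmental regulators, the genes that pattern embryonic tissue and skin, formed a further list of 61 symbols, likewise drawn up for intronless genes. They were single-exon in 41 of 56 matched cases, against 12.5% over all genes, a count that the choice of symbols fixes. Of the 41, 14 had a 3′ UTR, 12 had a 5′ UTR and 27 had neither. A 3′ UTR was present in 29.3% of all named single-exon genes, the class of these 41, and in 65.5% of all genes. The noggin gene NOG, a secreted BMP antagonist at chr19:7389042-7389740, had 696 coding bases and no UTR. FZD1, a WNT receptor, had the longest 3′ UTR of the list with 1772 bases, followed by GJB2, a skin connexin, with 1430, NEUROD1 with 1290, OLIG1 with 1273, ATOH1 with 967 and POU3F1 with 730. FZD7, FOXS1, FZD10, FZD2, POU3F2, NEUROG3 and NANOS2 had between 60 and 423 bases, and FOXD3 had 1 base. OLIG2 and OLIG3, FZD8, POU3F3 and POU3F4, and the 5 SOX genes of the list had none. LOR, which encodes the cornified-layer protein loricrin, had 1011 coding bases and no UTR.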

How the data were processed

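Per the labels, the libraries were prepared with a 3′ single-cell chemistry; the submitters' processing notes list Cell Ranger 3, Seurat and STAR. The deposited file used was a gene annotation with 1020224 feature lines, which per the file headers describes ARS-UCD1.2. It holds feature positions, in bases, that belong to no sample and carry no depth. How the authors joined it with the reindeer reads is not stated in the labels.

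From exon, coding and UTR lines, each gene was given its exon number, its longest coding and UTR lengths over transcripts, its clusters, its neighbours, shared exon bases and enclosing introns. The code was tested on simulated data with known answers, without the distance to the next gene. Families were recognised by symbol patterns, some narrowed after the matches were seen. A pattern can take in a gene that shares only the first letters of its symbol with the family.

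Members and lists were chosen with earlier results of these data known. The genes named were, per family, the first by position, those with the longest and shortest coding sequence and the longest 3′ UTR; over all named members the 5 longest, 5 shortest and 5 with the longest 3′ UTR; the ends of the 5 largest clusters; the 5 longest host introns; and list members. Some genes that this rule takes are left out here. Clusters beyond the 5 largest, and the genes named under other observations, were chosen after their values were seen. The planned tests across samples were not run, as cell counts were not used here. The 19 immune receptor segment genes and 13 mitochondrial genes were outside the rule. Software comprised pandas 2.3.3, SciPy 1.17.1, NumPy 2.4.6 and matplotlib 3.10.9 under Python 3.11.15.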

Additional observations from a re-analysis of the deposited data

How the results depend on the processing

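The number of single-exon genes was 2725 when a gene needed only 1 single-exon transcript and when exons under 30 bases apart were joined, and 2670 on assembled chromosomes alone. The share with another member nearby, 51.5% at 100 kb, was 44.1% at 50 kb, 60.1% at 200 kb, 43.4% on the same strand only and 90.2% with any protein-coding gene as neighbour. The median coding length of 936 bases was 898.5 in isolated members. The share with a 3′ UTR, 14.1%, was 11.5% at a minimum of 50 bases and 7.30% at 200 bases, against 70.8% and 60.1% in multi-exon genes. It was 21.9% in isolated members and 18.4% without clusters of 10 or more. The share with a 5′ UTR, 15.0%, was 10.9% at a minimum of 50 bases, against 64.8% in multi-exon genes, and 22.9% in isolated members. The restrictions to isolated members and without large clusters were added after the data were seen. The 0 single-exon genes with shared exon bases became 62 when either strand counted. The other alternatives left the member count, the largest family and the remaining shares close to the values reported. No paired analysis was possible because no per-sample values were used. Symbols limit the family counts, since 2001 members have none.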

Other observations

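Some symbols were carried by a single-exon and by a multi-exon gene at once. A copy here means a gene model with that symbol, and no sequences were compared. There were 22 symbols on more than 1 gene with at least 1 single-exon copy, and 16 of them were shared between the structures. HSPD1, the mitochondrial chaperonin, had 1719 coding bases without a UTR in its single-exon copy on chromosome 22 and 1719 coding bases over 12 exons, with a 3′ UTR of 475, on chromosome 2. The translation factor DENR had 594 coding bases in the single-exon copy on chromosome 29 and 594 in the gene of 8 exons on chromosome 17. In several other pairs the coding lengths differed by few bases. CBX3, a heterochromatin protein, had 543 in the single-exon copy and 549 over 6 exons. PTMA had 327 in the single-exon copy and 330 over 5 exons, and NFYB 627 in the single-exon copy and 621 over 8 exons. The single-exon copies of these 5 symbols had no UTR, and their multi-exon copies had a 3′ UTR of 416 to 1179 bases. CSMD3 and ZC3H11A were the other way round, with a 3′ UTR of 751 and 614 bases in the single-exon gene and none in the multi-exon gene. For both symbols the models were neighbours on the plus strand of the same chromosome. The single-exon ZC3H11A lay at chr16:1624495-1625414, just past the multi-exon model at chr16:1596039-1623678. The single-exon CSMD3 lay at chr14:50805781-50806991, before the multi-exon model at chr14:50969629-52273953. Whether such neighbours are parts of the same gene was not tested. Whether reads of such a transcript were split between the copies was not tested.

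The symbols of both recombinase genes of lymphocytes were also carried by a second, shorter gene model. Whether the shorter models are copies of the recombinase genes was not tested. RAG1 had 3129 coding bases on chromosome 15 and a second single-exon gene of 417 on chromosome 10. RAG2 had a single-exon gene of 423 coding bases on chromosome 10, against a gene of 2 exons with 1581 on chromosome 15.

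The 6 IFNB3 genes formed a regular row at chr8:23191860-23211059. All 6 were on the plus strand, had 558 coding bases (186 residues), a 5′ UTR of 77 bases and no 3′ UTR, and lay 3073 to 3076 bases apart. A different row was found on an unplaced scaffold, where 15 unnamed single-exon genes lay within 36.898 kb. Their coding lengths took only 4 values, 201 bases in 4 genes, 309 in 5, 408 in 4 and 693 in 2.

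Opposite-strand overlaps covered whole genes in some cases. All 1287 bases of AKAP5, a kinase anchoring protein, were shared with exons of ZBTB25 on the other strand. BDKRB1, a kinin receptor, shared all 591 bases with BDKRB2, and the small heat shock gene HSPB9 all 514 with RAB5C. In the protocadherin alpha region of chromosome 7, 4 unnamed single-exon genes of 405 coding bases each shared 408 bases with a gene on the other strand, in 1 case PCDHA3 and in 1 case PCDHA4.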
